A study of Homo sapiens with 12 samples.

Results

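Chromosome 19 holds long runs of zinc finger genes, and their mRNAs were followed here in HK2 cells with and without FLCN knockdown. The genes were chosen by symbol (ZNF and a number), by biotype (protein-coding) and by position in GENCODE release 29, and the rule itself uses no measured value, although the family was picked with earlier results of these data known. The rule was met by 249 of the 58288 gene IDs in the count table. Of these, 238 had at least 1 count over the 12 libraries and 204 (81.9%) passed the filter on low counts and were tested. The 45 genes not tested comprised 11 with no count in any library and 34 with a mean of at most 1.14 CPM (counts relative to the TMM-normalized library size). Among the tested genes, 179 reached the filter's level of 1.46 CPM in the mean of all 4 groups, 10 reached it in 3 groups, 10 in 2, 4 in 1 and 1 in none.

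Most of these genes code for KRAB zinc finger proteins, in which an array of C2H2 fingers reads a DNA sequence and the KRAB domain brings in the corepressor TRIM28 (KAP1). TRIM28 gathers the histone methyltransferase SETDB1 and heterochromatin proteins, and in early development the complex also directs DNA methylation. The proteins are best known for silencing retrotransposons, and the genes themselves arose by repeated tandem duplication, which left them side by side in clusters that carry repressive chromatin over their coding exons in many cell types.

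HK2 is an established cell line from the proximal tubule of a human kidney, and FLCN (folliculin) is the gene mutated in Birt-Hogg-Dubé syndrome, a hereditary disorder with kidney tumours. PolyA RNA was sequenced from 4 groups of 3 libraries, all from cells with a stably expressed short hairpin RNA (shRNA). Short-term nontarget cells (shControl) and short-term FLCN knockdown cells (shRNA FLCN) were harvested at fewer than 30 passages, and the long-term cells of both kinds at more than 120 by the sample labels. For the long-term cells the study's methods state a lower limit than the labels do. The stable lines were clones, and no source used here says which clone gave which library, so the FLCN shRNA and the clone cannot be told apart. The labels call the 3 libraries of a group biological replicates without saying how they were separated, so the p-values measure only the spread between these libraries.

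Totals ran from 5825779 to 8991051 counts per library, a shallow depth at which the median tested zinc finger gene had 6.11 CPM. FLCN fell in both comparisons, from 15.3 ± 2.25 to 6.06 ± 0.469 CPM short-term (mean ± SD, n = 3, as throughout) and from 11.3 ± 1.23 to 6.99 ± 0.868 CPM long-term, with adjusted p of 1.12e-04 and 0.00611 (edgeR's quasi-likelihood test, Benjamini-Hochberg over 13959 genes, as for each adjusted p given here). The libraries numbered 3 stood apart from the others of their group, with a chi-square per degree of freedom of 4.35 to 13.0 against 2.15 to 5.28 between replicates 1 and 2, and the number of calls without them is given for each comparison. Of 13 proximal tubule markers only 3 passed the filter, and LRP2, SLC22A6, SLC22A8 and HNF4A were among those with no count, so most defining markers of the labelled cell type were not detectable at this depth. The summed level of 6 epithelial markers was 2404 to 3061 CPM over the groups, that of 5 fibroblast markers 27.1 to 53.9 CPM, that of 4 endothelial markers at most 1.53 CPM (KDR at 0) and that of 4 leukocyte markers at most 0.14 CPM (PTPRC and CD3E among those at 0).

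As a whole, the zinc finger genes of chromosome 19 were less abundant in the knockdown cells at both times. All 249 genes together gave 1860, 1926 and 1874 CPM in the short-term nontarget libraries and 1564, 1687 and 1543 CPM in the short-term knockdown libraries. In the long-term cells the sums were 1963, 2048 and 1911 CPM without and 1404, 1570 and 1516 CPM with the knockdown. At each time every knockdown library lay below every nontarget library, while the nontarget sums differed little between the times (1887 ± 34.8 CPM short-term, 1974 ± 69.3 CPM long-term). The 264 ZNF genes on other chromosomes, a family of the same name, summed to 4115 ± 82.7 and 3994 ± 144 CPM short-term and to 4153 ± 84.0 and 4099 ± 143 CPM long-term, nontarget and knockdown in that order, and their libraries overlapped. In these bulk libraries, fewer cells that express a gene and less RNA per cell cannot be told apart.

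Gene by gene, 17 of the 204 tested genes were called lower and 0 higher after short-term knockdown (adjusted p below 0.05), a share of 8.33% lower beside 4.71% lower and 5.62% higher among all genes tested. Of the 17, 11 belonged to the 179 genes that reached the filter's level in all 4 groups. Without adjustment, 51 of the 204 had a p below 0.05 with a lower level and 0 with a higher one in edgeR, and DESeq2 gave 42 and 0. The unadjusted counts were not taken over all genes, so they have no background beside them. With adjustment DESeq2 called 11 lower and 0 higher, beside 669 lower and 846 higher among all 13959 genes. The 3 knockdown libraries all lay below the 3 nontarget libraries in 63 genes (30.9%, against 15.0% of all genes tested). The median log2 fold change was −0.30, while it was near 0 over all genes. The number of calls rested on single libraries: it was 5 without short-term nontarget replicate 1, 5 without replicate 2 and 8 without replicate 3 of that group, 10 without short-term knockdown replicate 1, 5 without knockdown replicate 3, and 9 without all 4 libraries numbered 3.

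After long-term knockdown 69 of the 204 genes were lower and 0 higher, a share of 33.8% lower beside 15.8% lower and 13.7% higher among all genes tested. Of the 69, 23 were lower by at least 2-fold, beside 936 of the 2210 genes called lower among all genes tested. Of the same 69, 59 belonged to the 179 genes that reached the filter's level in all 4 groups. Without adjustment the counts were 92 lower and 0 higher in edgeR and 86 and 0 in DESeq2, again with no such count over all genes. With adjustment DESeq2 called 58 lower and 0 higher, beside 2184 lower and 1844 higher among all 13959 genes. In 96 genes (47.1%) the 3 knockdown libraries all lay below the 3 nontarget libraries, against 20.7% of all genes tested, and the median log2 fold change was −0.46. The number of lower genes was 44 without long-term nontarget replicate 2, 43 without long-term knockdown replicate 1 and 65 without the 4 libraries numbered 3.

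Markers of other cell types and of the labelled one moved in the same comparison. Of the 3 tested fibroblast markers, LUM, a matrix proteoglycan, went from 0.960 ± 0.652 to 12.1 ± 2.72 CPM long-term (log2 fold change 3.69 ± 0.387, SE, adjusted p = 1.90e-06). PDGFRB, a receptor of mesenchymal cells, went from 7.41 ± 2.04 to 0.658 ± 0.461 CPM (−3.56 ± 0.447, adjusted p = 1.00e-05), so the list moved in both directions. Of the 5 tested epithelial markers, 2 were lower long-term, KRT7 (−1.46 ± 0.321, adjusted p = 0.00260) and EPCAM (−0.59 ± 0.186, adjusted p = 0.0237, or 0.0803 with long-term nontarget replicate 2 left out). Of the 3 tested proximal tubule markers, PAX8 was lower (−0.61 ± 0.103, adjusted p = 2.04e-04) and GGT1 higher (0.85 ± 0.160, adjusted p = 6.03e-04). Short-term, 0 of these 11 were lower, and PAX8 and GGT1 were higher (0.33 ± 0.103 and 0.51 ± 0.159, adjusted p = 0.0490 and 0.0483), calls lost in each of the 6 fits without 1 library (with a highest adjusted p of 0.196 and 0.181 on leaving out short-term nontarget replicate 3). LUM also differed between the nontarget groups, at 23.5 ± 4.01 CPM short-term. The part of these differences in the zinc finger result was not tested.

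**Figure D1:**
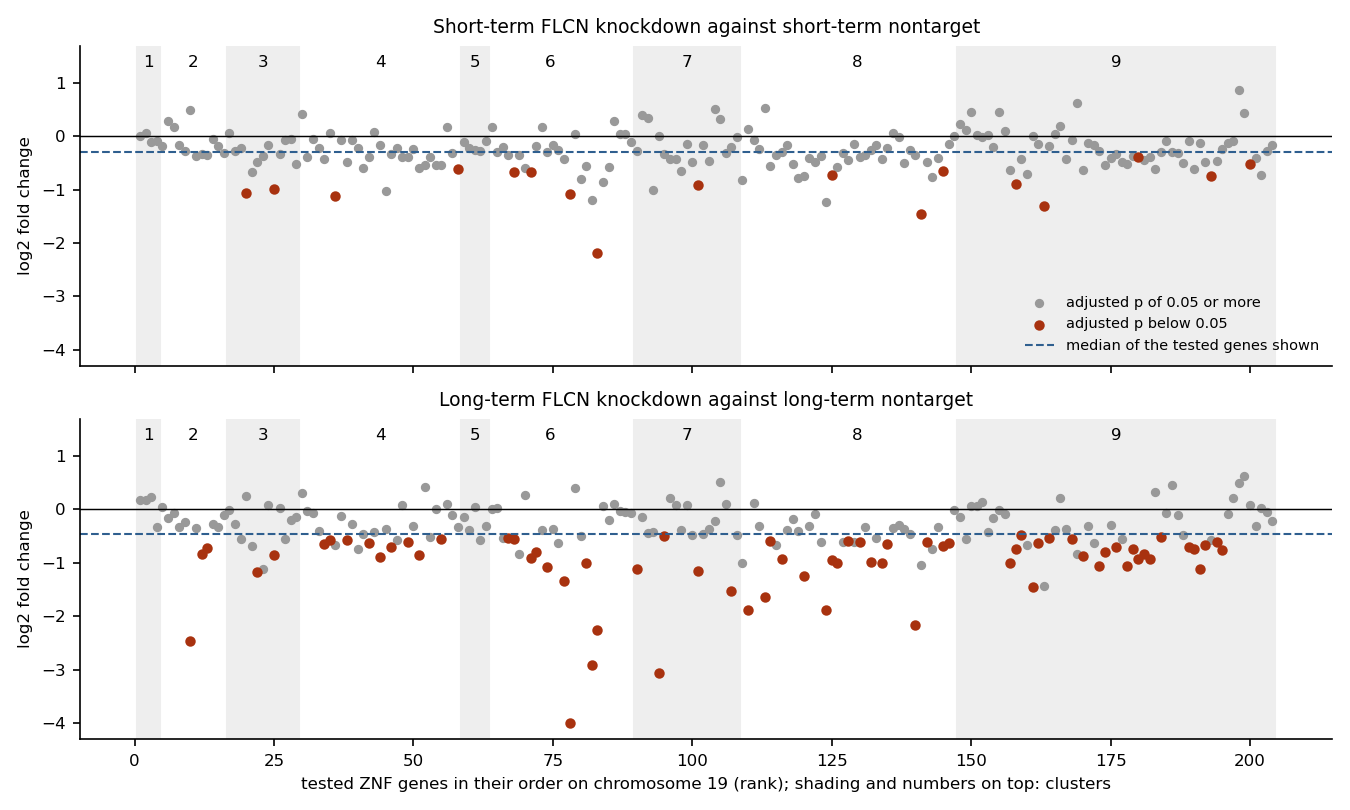
Log2 fold change (y axis) of the 204 tested ZNF genes of chromosome 19 in their order along the chromosome (x axis, rank), for short-term (top) and long-term (bottom) knockdown against nontarget; red points have an adjusted p below 0.05, the dashed line is the median of the genes shown, and shading and numbers mark clusters 1 to 9. The medians lie at −0.30 and −0.46, no red point lies above 0, and the lowest long-term point is ZNF585B at −3.99.

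The nearest comparable lists were set beside this one. Of 225 tested ZNF genes on other chromosomes, 6 were lower and 8 higher short-term (median log2 fold change −0.10), and 20 were lower and 23 higher long-term (median −0.02). Of 665 other tested protein-coding genes of chromosome 19, 25 were lower and 11 higher short-term (median 0.03), and 105 were lower and 46 higher long-term (median −0.06). Zinc finger genes were left out of these 665 by symbol only, so some under different names may remain. The 12 tested zinc finger genes of chromosome 19 with other kinds of symbol (such as ZFP, ZSCAN or ZIM), on the other hand, had a median of −0.26 short-term and −0.53 long-term, with 4 of 12 lower and 0 higher long-term. The lists differ in level, since the median tested gene had 6.11 CPM on chromosome 19 and 11.1 CPM among ZNF genes elsewhere, and no test was made over the lists.

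Level and overlap with other genes were set beside the shift. The most abundant members per kb of exon were ZNF146, a protein of zinc fingers without a KRAB domain, at 21.0 CPM per kb, ZNF787 at 15.9, ZNF581 at 11.7 and ZNF358 at 10.8 CPM per kb, and none of these 4 was called in either knockdown comparison. In a fit limited to 9363 genes whose mean reached 10 CPM, 53 members remained, of which 4 were lower short-term and 20 long-term, with medians of −0.26 and −0.34 and 0 higher at either time. These are 7.55% and 37.7% of the 53, beside 5.02% and 16.6% lower among all genes of that fit. Exons of 112 tested members overlap those of another annotated gene, and the strand setting of the counting is not stated. The 92 members without such an overlap had a median of −0.35 short-term and −0.46 long-term, against −0.27 and −0.43 for those with one.

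By position, 238 of the 249 genes fell into 9 clusters when a gap of more than 1 Mb opened a new cluster (coordinates on GRCh38). Cluster 8, from ZNF175 to ZNF331 (chr19:51571298-53580269), was the most uniform long-term, when 36 of its 36 tested members had a log2 fold change below 0. Short-term 34 of 36 did, as did 5 of 5 in cluster 5. At each time 168 of the 204 tested zinc finger genes were below 0, and of all 13959 genes 6982 short-term and 6957 long-term. The summed level of the 40 genes of cluster 8 was 322, 320 and 266 CPM in the long-term nontarget libraries and 194, 239 and 179 CPM in the long-term knockdown libraries, a fall of the mean by 32.6%. Short-term the sums were 263, 308 and 281 CPM without and 211, 257 and 179 CPM with the knockdown, a fall by 24.1%. The groups did not overlap at either time. Of its tested members 16 were lower long-term and 3 short-term, and the median log2 fold changes were −0.61 and −0.37. The 2 other tested protein-coding genes within its bounds had a median of 0.32 long-term with 0 called. Here and below, such neighbours are all other protein-coding genes within a cluster's bounds, zinc finger genes with other kinds of symbol included.

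Cluster 9, the distal cluster from ZNF628 to ZNF446 (chr19:55476332-58481230), held the most genes, 59, of which 57 were tested. Long-term, 23 were lower and 0 higher with a median of −0.51, and short-term 5 were lower with a median of −0.28. Its sum was 696, 760 and 767 CPM in the long-term nontarget libraries and 508, 550 and 639 CPM in the long-term knockdown libraries, without overlap and 23.7% lower in the mean. The 16 other tested protein-coding genes within its bounds had a median of −0.24 short-term with 0 called, and −0.21 long-term with 4 lower and 2 higher. Zinc finger genes with other kinds of symbol were not left out of these 16, and ZIK1 and ZSCAN18 overlap members of this cluster.

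Cluster 6, from ZNF565 to ZNF573 (chr19:36182060-37817300, 22 of 26 genes tested), held the deepest fall of a single gene, that of ZNF585B. Long-term, 10 of its tested members were lower and the median was −0.55, and short-term 4 were lower with a median of −0.39. Its summed level did not follow cleanly, since the long-term libraries overlapped (208, 215 and 177 CPM nontarget, 152, 187 and 147 CPM knockdown), while short-term all 3 knockdown libraries were lower and the mean fell by 23.9%. ZNF146, which lies in this cluster and was not called, holds a large share of the sum at a mean of 87.0 CPM. The 4 other tested protein-coding genes within the cluster's bounds had a median of −0.37 short-term with 0 called, and −0.60 long-term with 2 lower. Zinc finger genes with other kinds of symbol were not left out of these 4, and ZFP30 lies in this cluster. The 4 may thus not be unrelated genes.

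Cluster 4, from ZNF101 to ZNF254 (chr19:19668796-24129961), contains many primate-expanded KRAB genes. It had the most members without a single count, namely ZNF208, ZNF676, ZNF729, ZNF98, ZNF492, ZNF99, ZNF723 and ZNF728. Of its 27 tested members 9 were lower long-term and 1 short-term, with medians of −0.46 and −0.38, and its summed level was 20.4% lower short-term and 25.3% lower long-term without overlap of the libraries. No other tested protein-coding gene lies between its bounds.

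Cluster 7, from ZNF575 to ZNF296 (chr19:43525497-45076588), lay among other genes of which 10 were also lower long-term. Its 19 tested members had a median of −0.42 long-term with 5 lower, and the 18 other tested protein-coding genes within its bounds a median of −0.75. Short-term the medians were −0.27 and −0.20. Cluster 3, from ZNF653 to ZNF791 (chr19:11483427-12640098), had 13 of its 26 members tested, with medians of −0.32 short-term and −0.27 long-term and 2 lower at each time. Its sum was 74.9, 80.9 and 76.5 CPM in short-term nontarget and 59.5, 70.2 and 45.3 CPM in short-term knockdown libraries, without overlap and 24.7% lower in the mean. Long-term the libraries overlapped, with 87.1, 91.1 and 71.7 against 63.0, 75.4 and 55.8 CPM. Its 4 tested neighbours had a median of −0.08 short-term with 1 lower and 1 higher, and −0.73 long-term with 3 lower.

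The remaining clusters had few calls or none. In cluster 2, from ZNF557 to ZNF846 (chr19:7069444-9793180), 3 of 12 tested members were lower long-term and 0 short-term, and the sum was 10.2% and 18.8% lower short-term and long-term without overlap. In cluster 5, from ZNF302 to ZNF792 (chr19:34677639-34964049), 0 of 5 members were called and the libraries overlapped. Cluster 1, from ZNF554 to ZNF77 (chr19:2819874-2944971), had a summed level of 13.3 ± 0.623 CPM in nontarget and 13.1 ± 0.825 CPM in knockdown cells long-term, and its 4 tested members had a median of 0.18.

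The long-term calls included 5 runs of at least 3 adjacent tested members, which hold 18 of the 69 genes, and whether neighbours move together was not tested. The runs rest on single libraries: in the 6 fits without 1 long-term library, 1 to 5 of them stayed whole, with 1 without knockdown replicate 1 or nontarget replicate 2. The runs are ZNF569, ZNF570 and ZNF793 in cluster 6 (whole in 5 of the 6 fits), ZNF610, ZNF880 and ZNF528 in cluster 8 (3 of 6), and in cluster 9 ZNF582, ZNF583 and ZNF667 (1 of 6), then ZNF416, ZNF530, ZNF134, ZNF211 and ZNF551 (4 of 6, log2 fold changes of −1.06 to −0.74), and ZNF587, ZNF417, ZNF256 and ZNF606 (2 of 6, −1.12 to −0.66). Between such runs lay members that were not called, so no run spans a whole cluster.

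The deepest fall was that of ZNF585B in cluster 6 (chr19:37181579-37218153, minus strand). Its counts were 51, 55 and 42 in short-term nontarget, 27, 25 and 18 in short-term knockdown, 38, 36 and 28 in long-term nontarget and 2, 2 and 2 in long-term knockdown libraries. The groups did not overlap within either time, and the long-term knockdown libraries were close to silent. The log2 fold change was −1.09 ± 0.227 (SE, as for each log2 fold change, adjusted p = 0.00439) short-term and −3.99 ± 0.372 (adjusted p = 3.49e-07) long-term. From the summed counts, 6 against 102, the long-term nontarget level was 17.5 times the knockdown level, with a 95% interval of 7.75 to 48.7 that covers counting error only.

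ZNF585A (chr19:37106734-37172741, minus strand), the neighbouring tandem copy of ZNF585B, fell less. Its counts were 44, 30 and 33 in short-term nontarget, 46, 20 and 15 in short-term knockdown, 34, 31 and 28 in long-term nontarget and 14, 13 and 9 in long-term knockdown libraries. Only the long-term groups were separate, with a log2 fold change of −1.35 ± 0.324 (adjusted p = 0.00421) against −0.43 ± 0.279 (adjusted p = 0.394) short-term. Because the copies are alike, reads may have been shared or dropped between them, and the treatment of multimapping reads is not stated. ZNF383, whose first exon overlaps that of a longer, processed transcript of ZNF585B on the other strand, had 22, 15 and 16 counts in long-term nontarget and 24, 33 and 12 in long-term knockdown libraries, which overlap (log2 fold change 0.40 ± 0.324, adjusted p = 0.395).

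The promoter sequences of these neighbours are shown because ZNF585A and ZNF585B are copies of each other. The RefSeq start of ZNF585B lies inside the gene's GENCODE bounds, which that longer transcript sets. Over the 300 bases around the start (250 before to 50 after, RefSeq on GRCh38.p14), ZNF585A and ZNF585B aligned over 280 bases with 230 identical (82.1%). The 250 bases before each start are given 5′ to 3′ on the gene's strand, with each CG dinucleotide, the site of DNA methylation, in capitals: ZNF585A at chr19:37172696-37172945 (minus) with 16, ZNF585B at chr19:37210537-37210786 (minus) with 13, ZNF383 at chr19:37217964-37218213 (plus) with 19, and ZNF793 at chr19:37506689-37506938 (plus) with 10 of them.
ZNF585A: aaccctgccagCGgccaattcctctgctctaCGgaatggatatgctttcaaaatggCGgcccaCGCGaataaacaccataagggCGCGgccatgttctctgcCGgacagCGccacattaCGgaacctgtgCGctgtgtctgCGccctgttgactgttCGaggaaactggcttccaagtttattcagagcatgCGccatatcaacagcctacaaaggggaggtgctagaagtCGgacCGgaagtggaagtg
ZNF585B: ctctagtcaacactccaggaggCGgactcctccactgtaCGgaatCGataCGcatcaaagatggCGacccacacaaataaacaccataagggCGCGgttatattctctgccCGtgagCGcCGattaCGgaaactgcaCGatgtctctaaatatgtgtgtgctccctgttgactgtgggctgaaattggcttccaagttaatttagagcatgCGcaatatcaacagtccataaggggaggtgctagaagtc
ZNF383: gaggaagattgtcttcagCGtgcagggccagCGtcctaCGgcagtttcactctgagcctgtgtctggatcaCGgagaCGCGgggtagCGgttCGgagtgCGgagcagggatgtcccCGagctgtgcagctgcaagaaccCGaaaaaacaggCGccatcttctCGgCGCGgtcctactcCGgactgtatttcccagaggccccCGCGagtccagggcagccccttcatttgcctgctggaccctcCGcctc
ZNF793: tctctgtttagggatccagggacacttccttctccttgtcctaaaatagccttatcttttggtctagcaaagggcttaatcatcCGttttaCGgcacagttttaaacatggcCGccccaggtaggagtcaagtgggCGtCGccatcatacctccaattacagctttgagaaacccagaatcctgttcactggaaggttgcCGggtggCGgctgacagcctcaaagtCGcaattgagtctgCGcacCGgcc

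CG content overlapped between the lowered genes and the others. Counting CG on the strand given (the motif reads the same on both strands), the median over the 300 bases was 20 for 59 of the 69 genes lower long-term that had a promoter entry and 22 for 124 of the 135 tested genes not called, with interquartile ranges of 16 to 25 and 15 to 28. Every one of the 183 matched promoters of tested members held at least 1 CG, as did 99.7% of the 10029 matched promoters of tested protein-coding genes, whose median was 27. DNA methylation itself was not measured.

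ZNF793 (chr19:37506939-37548762, plus strand), also in cluster 6, was low after knockdown at both times. Its counts were 22, 13 and 16 in short-term nontarget, 3, 6 and 2 in short-term knockdown, 13, 13 and 9 in long-term nontarget and 4, 2 and 1 in long-term knockdown libraries. The log2 fold changes were −2.18 ± 0.438 (adjusted p = 0.00340) and −2.25 ± 0.511 (adjusted p = 0.00271), and the 2 effects did not differ detectably (difference −0.07 ± 0.575, adjusted p = 0.961). Its exons overlap those of the antisense gene ZNF793-AS1, so without a known strand setting reads of the 2 cannot be told apart. Beside it, ZNF570 had 19, 7 and 7 counts in long-term nontarget and 3, 1 and 0 in long-term knockdown libraries (−2.92 ± 0.678, adjusted p = 0.00326), and ZNF569, which overlaps ZNF570, had 44, 43 and 52 against 22, 24 and 22 (−0.995 ± 0.266, adjusted p = 0.00844; 0.0555 without long-term knockdown replicate 1).

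No gene met the rule for silencing or gain (at most 3 counts over a group and a mean of at least 20 counts in another). With at most 10 counts over the 3 long-term knockdown libraries, a limit chosen after the values were seen, 6 tested genes called lower came near silence: ZNF585B, ZNF570 and ZNF793 as above, ZNF404, ZNF699 and ZNF665. ZNF404 in cluster 7 (chr19:43872363-43901385) had 18, 12 and 15 counts in long-term nontarget and 4, 0 and 1 in long-term knockdown libraries, but 15, 5 and 10 against 10, 12 and 8 short-term. It was thus lower at the late time (−3.06 ± 0.586, adjusted p = 6.71e-04), while the short-term groups overlapped (adjusted p = 1.00). ZNF699 in cluster 2 fell from 15, 15 and 11 to 1, 0 and 6 counts (adjusted p = 0.0130, or 0.0760 with long-term knockdown replicate 1 left out), and ZNF665 in cluster 8 from 15, 14 and 18 to 2, 6 and 2 (adjusted p = 0.00239). Of these 6 genes, ZNF665 reached the filter's level in the long-term nontarget group alone (2.17 CPM), and ZNF570, ZNF793, ZNF404 and ZNF699 in 2 groups, so they were tested through the groups where they are high, which limits what their calls show. Among the genes below the filter, which have no test, 5 had at most 3 counts over the long-term knockdown libraries and at least 10 over the long-term nontarget libraries: ZNF556, ZNF560, ZNF844, ZNF540 and ZNF418. ZNF560 had 1, 8 and 3 counts in long-term nontarget and 0 in each long-term knockdown library, beside 25 over each of the short-term groups. ZNF556 had 7, 4 and 6 counts against 1, 0 and 0.

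**Figure D2:**
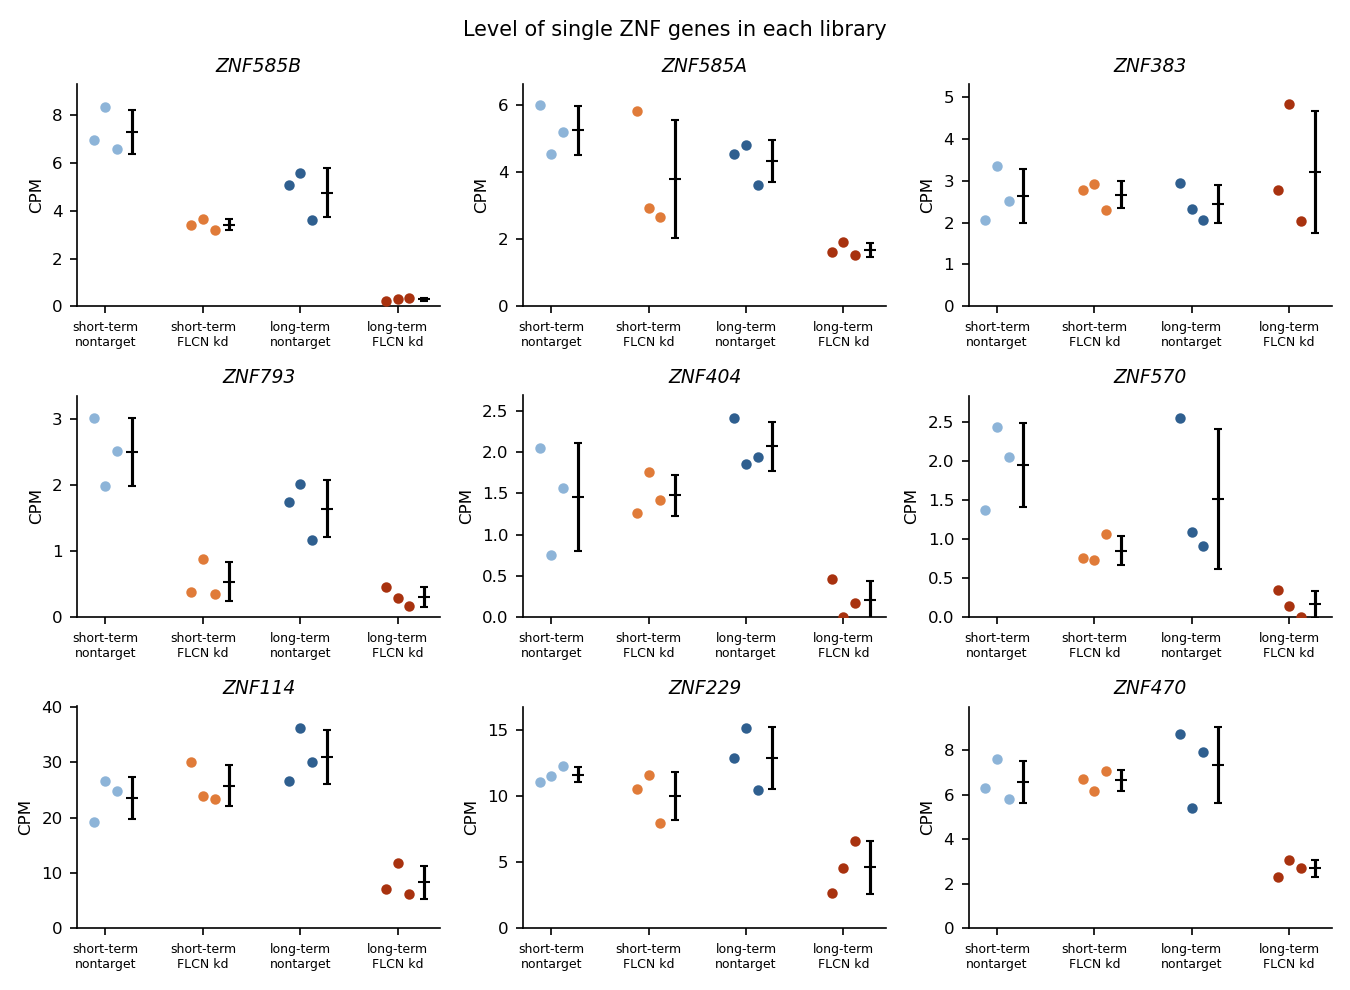
CPM (y axis, from 0) of 9 single ZNF genes in the 12 libraries (points, 3 per group), with the group mean and SD beside them. ZNF585B is lowest in the long-term knockdown group at 0.288 CPM, ZNF793 is low in both knockdown groups, ZNF404, ZNF114, ZNF229 and ZNF470 are lowest in the long-term knockdown group, and ZNF383 overlaps between all groups.

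Some better expressed genes were also lower after long-term knockdown. ZNF114, which lies outside the clusters (chr19:48270102-48287608), had 141, 175 and 158 counts in short-term nontarget, 238, 163 and 132 in short-term knockdown, 198, 234 and 232 in long-term nontarget and 62, 80 and 36 in long-term knockdown libraries. The long-term groups were far apart (−1.89 ± 0.212, adjusted p = 2.96e-06) and the short-term groups overlapped (0.14 ± 0.194, adjusted p = 0.744). Its antisense neighbour ZNF114-AS1 shares exon positions with it. ZNF229 in cluster 7 had 96, 98 and 81 counts in long-term nontarget and 23, 31 and 39 in long-term knockdown libraries (−1.52 ± 0.253, adjusted p = 1.89e-04). ZNF470 in cluster 9 had 65, 35 and 61 against 20, 21 and 16 (−1.46 ± 0.236, adjusted p = 1.45e-04), and ZNF841 in cluster 8 had 29, 35 and 38 against 22, 15 and 6 (−1.24 ± 0.303, adjusted p = 0.00456). These calls, those of ZNF114 and ZNF585B included, were kept in each fit without 1 library.

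Members with a known silencing role were taken for that role and not by the naming rule. ZNF274, which binds the 3′ ends of zinc finger genes themselves and brings SETDB1 to them, had 267, 254 and 285 counts in long-term nontarget and 197, 138 and 135 in long-term knockdown libraries (−0.76 ± 0.121, adjusted p = 1.14e-04), and −0.24 ± 0.121 short-term (adjusted p = 0.244). ZNF93, a repressor of LINE-1 elements, was lower long-term at −0.57 ± 0.179 (adjusted p = 0.0221, or 0.0885 with long-term knockdown replicate 3 left out). ZNF91, a repressor of SVA elements, had 54, 47 and 57 counts in long-term nontarget and 40, 39 and 29 in long-term knockdown libraries; these do not overlap as CPM, but the call was not made (−0.52 ± 0.216, adjusted p = 0.0793, and 0.0401 with the replicate number as a block).

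In the short-term comparison, the 5 largest falls among genes with a mean of at least 20 counts were those of ZNF585B and 4 others. Fewer counts lay behind 5 called genes with falls deeper than that of ZNF136: ZNF793 as above, ZNF677 (−1.46 ± 0.337, adjusted p = 0.00896, kept in each fit without 1 library), ZNF835 (−1.30), ZNF682 (−1.12) and ZNF441 (−1.06), of which the last 3 were each lost in 5 of the 6 fits. ZNF835 reached the filter's level in short-term nontarget cells alone, so it was tested only through the group where it is high. ZNF136 in cluster 3 went from 31, 29 and 36 to 24, 14 and 11 counts (−0.99 ± 0.290, adjusted p = 0.0368), ZNF234 in cluster 7 from 42, 41 and 26 to 24, 17 and 17 (−0.91 ± 0.267, adjusted p = 0.0369), ZNF583 in cluster 9 from 54, 49 and 35 to 32, 29 and 14 (−0.89 ± 0.250, adjusted p = 0.0289) and ZNF135 in cluster 9 from 71, 81 and 61 to 52, 54 and 23 (−0.75 ± 0.224, adjusted p = 0.0408). As CPM the groups did not overlap in any of these. Each of the 4 calls was lost in 4 or 5 of the 6 fits without 1 library, and the highest adjusted p were 0.142 (nontarget replicate 3 left out), 0.149 (replicate 2), 0.114 (replicate 1) and 0.177 (replicate 2) in that order. ZNF585B kept an adjusted p of at most 0.0294 in these fits.

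The short-term and long-term knockdown comparisons share no library. In both, 10 genes were called lower, which is 4.90% of the 204 (beside 2.64% of all genes tested), 58.8% of the 17 short-term and 14.5% of the 69 long-term calls: ZNF136, ZNF529, ZNF567, ZNF585B, ZNF793, ZNF234, ZNF880, ZNF761, ZNF583 and ZNF134. Over all genes tested, genes lower in both made up 56.0% of the short-term and 16.7% of the long-term lower calls, shares close to those of the zinc finger genes. ZNF585B and ZNF793 kept both calls in each fit without 1 library. The other 8 lost the short-term call in 2 to 6 of the 6 fits, ZNF567 in all 6 (and 0.0943 with DESeq2). Long-term, ZNF583 lost it in 5, ZNF529 in 4, ZNF136 in 3 and ZNF761 in 1 of the 6. The log2 fold change was below 0 at both times in 145 of the 204 genes (71.1%, beside 4055 of the 13959 tested), and the 3 knockdown libraries lay below the 3 nontarget libraries at both times in 41 (20.1%, beside 6.33%). Across the 204 genes, which are not independent replicates, Pearson's r between the short-term and long-term log2 fold changes was 0.36, and over all 13959 genes it was 0.27. ZNF880 in cluster 8 is an example of like falls, from 108, 97 and 102 to 74, 79 and 35 counts short-term (−0.73 ± 0.182, adjusted p = 0.0146, and 0.0561 without short-term nontarget replicate 3) and from 129, 109 and 123 to 79, 59 and 47 long-term (−0.95 ± 0.180, adjusted p = 6.10e-04).

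Time in culture without knockdown changed few of these genes. In long-term against short-term nontarget cells 3 were lower and 2 higher, or 1.47% and 0.98%, beside 4.38% lower and 3.17% higher among all genes tested, and the median was 0.04. ZNF577 rose from 3, 7 and 5 to 21, 19 and 18 counts (1.83 ± 0.420, adjusted p = 0.0110, and 0.0829 without short-term nontarget replicate 1) and ZNF428 from 100, 97 and 72 to 122, 133 and 183 (0.61 ± 0.179, adjusted p = 0.0462, or 0.211 with long-term nontarget replicate 3 left out). ZNF835 went from 21, 16 and 20 to 5, 4 and 8 counts (−1.82 ± 0.426, adjusted p = 0.0124, or 0.0609 with long-term nontarget replicate 2 left out). ZNF577 reached the filter's level in long-term nontarget cells alone (2.70 CPM) and ZNF835 in short-term nontarget cells alone (2.81 CPM), so each was tested only through the group where it is high. The genes ZNF677 and ZNF671 were also lower (−1.07 ± 0.319 and −0.97 ± 0.286, adjusted p = 0.0482 and 0.0469), each call lost in 5 of the 6 fits without 1 library (with a highest adjusted p of 0.192 for ZNF677, on leaving out short-term nontarget replicate 3, and of 0.186 for ZNF671, on leaving out replicate 1). Each of the 6 fits without 1 of these libraries gave 1 to 3 calls in all, and without the 4 libraries numbered 3 there were 1 lower and 2 higher.

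Between long-term and short-term knockdown cells 16 were lower and 3 higher, or 7.84% and 1.47%, beside 15.2% lower and 11.5% higher among all genes tested. Without the 4 libraries numbered 3 they were 18 and 2. Of the calls, 11 had separate groups and enough counts to be named, and the 5 largest falls among them were those of ZNF114 (−1.63 ± 0.214, adjusted p = 2.08e-05), ZNF470 (−1.30 ± 0.241, adjusted p = 6.10e-04), ZNF229 (−1.18 ± 0.260, adjusted p = 0.00264), ZNF772 (−1.04 ± 0.192, adjusted p = 5.94e-04) and ZNF257 (−0.73 ± 0.242, adjusted p = 0.0337). Among the rises, ZNF584 had 116, 114 and 65 counts in short-term and 193, 156 and 146 in long-term knockdown libraries (0.70 ± 0.147, adjusted p = 0.00184). ZNF584 and ZNF324B (0.69 ± 0.243, adjusted p = 0.0434) lie near each other at the end of cluster 9. ZNF257 was lost in 4 and ZNF324B in 5 of 6 fits without 1 library (adjusted p up to 0.148 without long-term and 0.211 without short-term knockdown replicates 2 and 1).

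The knockdown effect differed between the times in 9 genes, all with a lower value long-term (4.41%, beside 8.43% lower and 4.98% higher among all genes tested) and 0 with a higher one. Without adjustment edgeR gave 21 lower and 5 higher, with no such count over all genes, and DESeq2 gave 8 adjusted calls, all lower. The differences of the effects were largest for ZNF404 (−3.06 ± 0.760, adjusted p = 0.0110), ZNF699 (−2.95 ± 0.933, adjusted p = 0.0447), ZNF585B (−2.90 ± 0.473, adjusted p = 3.66e-04), ZNF577 (−2.17 ± 0.645, adjusted p = 0.0323) and ZNF114 (−2.02 ± 0.288, adjusted p = 9.31e-05). ZNF577, tested only through its level in long-term nontarget cells, differs from the others, as that level was higher there than in short-term nontarget cells and its counts in long-term knockdown (4, 8 and 6) were like those in short-term cells. The number of calls was 5 without short-term nontarget replicate 1 or 3 or without long-term knockdown replicate 1, and 11, all lower, without the 4 libraries numbered 3.

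Finally, the machinery through which KRAB proteins act and which methylates DNA was read from a list of 27 genes, all tested. TRIM28 itself was not called, with 828, 760 and 760 CPM in short-term nontarget and 729, 712 and 1196 CPM in short-term knockdown libraries, with adjusted p of 0.688 short-term and 0.999 long-term. SETDB1 was not called either (−0.32 ± 0.144, adjusted p = 0.184, and 0.06 ± 0.142, adjusted p = 0.800). Short-term, 1 of the 27 was lower (UHRF1, which guides maintenance methylation, −0.52 ± 0.137, adjusted p = 0.0212, or 0.106 with short-term nontarget replicate 3 left out) and 1 higher (TET3, which oxidizes methylcytosine, 0.65 ± 0.117, adjusted p = 0.00142). Long-term, 3 were lower and 3 higher, and the median of the list was 0.11. The shares called, 3.70% each way short-term and 11.1% each way long-term, lay below those of all genes tested (4.71% and 5.62%, then 15.8% and 13.7%), so the list as a whole did not stand out and the genes that follow are single calls.

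The long-term calls included enzymes on both sides of DNA methylation. DNMT3B, a de novo DNA methyltransferase, had 42.1, 44.3 and 51.5 CPM in long-term nontarget and 13.5, 12.2 and 17.5 CPM in long-term knockdown libraries (−1.68 ± 0.168, adjusted p = 7.68e-07). TET2, a methylcytosine dioxygenase, had 2.41, 2.63 and 1.42 CPM in long-term nontarget and 11.2, 13.2 and 8.65 CPM in long-term knockdown libraries (2.37 ± 0.256, adjusted p = 1.91e-06). In both genes it was the long-term nontarget group that stood apart, since the short-term nontarget libraries had 16.5 to 19.3 CPM of DNMT3B and 9.98 to 12.7 CPM of TET2. From short-term to long-term nontarget cells DNMT3B rose by 1.33 ± 0.164 (adjusted p = 5.68e-05) and TET2 fell by 2.43 on the log2 scale (adjusted p = 1.04e-05).

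Of the other long-term calls, MPHOSPH8 (MPP8), a subunit of the HUSH silencing complex, showed the same pattern as TET2. It had 35.4, 33.9 and 39.9 CPM in short-term nontarget, 15.8, 21.1 and 20.3 CPM in long-term nontarget and 48.2, 55.5 and 35.3 CPM in long-term knockdown libraries (1.29 ± 0.182, adjusted p = 3.68e-05). MORC2, an ATPase that works with HUSH, was lower (−0.49 ± 0.103, adjusted p = 0.00145), as was UHRF1 (−0.70 ± 0.136, adjusted p = 7.51e-04), and TET1 was higher (1.77 ± 0.377, adjusted p = 0.00168). Whether any of these moved the zinc finger genes was not tested.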

How the data were processed

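PolyA RNA of 12 HK2 libraries (4 groups of 3) was measured. The authors ran fastp, STAR (2-pass, on GRCh38 per the submitters' notes), featureCounts and DESeq2. Versions, annotation release, strand and multimapping settings are not given in the sources used here. The deposited unit is the raw count per gene, and the authors' table and their per-library count files differed in 0 values. The deposited normalized columns, of unit score, were not used for any result.

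The genes, lists and tests were chosen with earlier results of these data known. GENCODE release 29 (GRCh38) held 237 of the 249 IDs in the same version. Depth was 5825779 to 8991051 counts per library, and zinc finger genes held 0.135% to 0.211% of them; counting intervals cover counting error only. In R 4.3.3 with edgeR 4.0.16, genes passing filterByExpr (13959) entered 1 model of all 12 libraries with TMM factors and a two-sided quasi-likelihood test per comparison. Calls are genes with a Benjamini-Hochberg adjusted p below 0.05 over all genes tested. SE were obtained as the log2 fold change over the root of F. The fit was tested on simulated data.

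Named are, per comparison, the 5 largest rises and falls among called genes whose libraries do not overlap and whose mean reaches 20 counts, the 5 largest interaction effects either way, genes near silence and the corepressor list. ZNF91, ZNF93, ZNF274, ZNF383, ZNF441, ZNF556, ZNF560, ZNF567, ZNF569, ZNF577, ZNF671, ZNF677, ZNF682, ZNF835, ZNF880, 6 cell type markers and the most abundant genes were added after values were seen, as neighbours, for a role or to complete a short count. Clusters are members less than 1 Mb apart, with at least 5 members. Promoters (RefSeq, GRCh38.p14) were matched for 218 of 249 genes (87.6%).

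Groups share replicate numbers. Deviations from the group means of same-numbered libraries correlated at 0.123 to 0.458 between the long-term groups and at 0.223 to 0.455 between the knockdown groups, so there the numbers were taken to pair the libraries, from the data and not from a stated shared culture. Alternatives were DESeq2 1.42.0, RLE factors, other filters, only the groups compared, the replicate block, fold limits, other cluster distances and leaving out libraries.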

Additional observations from a re-analysis of the deposited data

Results flagged for a closer look

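The knockdown effect differed between long-term and short-term cells by a test of the difference itself (edgeR's interaction term, adjusted p below 0.05) in 9 genes, each with the lower value long-term. The difference of the log2 fold changes was −3.06 ± 0.760 (SE) for ZNF404 (adjusted p = 0.0110), −2.95 ± 0.933 for ZNF699 (adjusted p = 0.0447), −2.90 ± 0.473 for ZNF585B (adjusted p = 3.66e-04), −2.17 ± 0.645 for ZNF577 (adjusted p = 0.0323) and −2.02 ± 0.288 for ZNF114 (adjusted p = 9.31e-05). Smaller differences were −1.47 ± 0.320 for ZNF470 (adjusted p = 0.00426), −1.31 ± 0.344 for ZNF229 (adjusted p = 0.0154), −0.79 ± 0.254 for ZNF428 (adjusted p = 0.0491) and −0.54 ± 0.161 for ZNF134 (adjusted p = 0.0333).

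ZNF404, ZNF585B, ZNF114, ZNF470 and ZNF229 kept this call in each of the 12 fits without 1 library. ZNF699, ZNF428 and ZNF134 lost it in 9 of 12 and ZNF577 in 7 of 12, with adjusted p up to 0.134 and 0.131 without long-term knockdown replicate 1 for ZNF699 and ZNF428, 0.0858 without short-term nontarget replicate 3 for ZNF134 and 0.0983 without short-term knockdown replicate 3 for ZNF577. In ZNF428 and ZNF577 the long-term nontarget libraries were higher than the short-term nontarget libraries. ZNF577 reached the filter's level in long-term nontarget cells alone, and ZNF404 and ZNF699 in only some groups. These genes were thus tested through the groups where they are high, and keeping a call without 1 library does not lift that limit.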

How the results depend on the processing

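Short-term knockdown gave 17 calls as reported, 11 with DESeq2, 4 at a mean of at least 10 CPM, 29 with the replicate number as a block (28 lower, 1 higher), 9 without the 4 libraries numbered 3 (chosen after seeing the data), 2 at a fold limit of 2.5 and 5 to 14 without each library in turn. Long-term knockdown gave 69 calls, 20 at 10 CPM, 12 at a fold limit of 2.5 and 43 to 67 without each library. Long-term against short-term nontarget cells gave 5 calls, 3 with DESeq2, 3 without a filter, 0 at 10 CPM (edgeR, with 3 at an unadjusted p below 0.05), 3 without the libraries numbered 3, 3 at a fold limit of 2 and 1 to 3 without each library. Long-term against short-term knockdown gave 19 calls, 8 at 10 CPM, 9 with only the groups compared, 10 at a fold limit of 2 and 11 to 22 without each library. The interaction gave 9 calls, 3 at 10 CPM, 16 with the replicate block and 5 to 11 without each library. The fits at 10 CPM hold fewer genes and those without libraries fewer samples; the cause of the other differences was not tested.

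The blocked fits gave 85 calls long-term and 26 between the knockdown groups, and 5 between the nontarget groups. Same-numbered libraries of the short-term groups (correlations 0.0172 to 0.111) and of the nontarget groups (−0.0340 to 0.0767) share only a number. Among named genes in the paired comparisons, the block added the long-term calls of ZNF91 (adjusted p = 0.0401), ZNF135 (0.0364), ZNF428 (0.0260) and SUV39H2 (0.0405) and, between the knockdown groups, of FAM208A (0.0462), MPHOSPH8 (0.0387), SUV39H2 (0.0196) and TET3 (0.0467), and ended 0. Of 100 named calls, 53 were kept in every other fit run (fold limits not included), 46 were lost without a library and 0 changed sign. The median over the tested zinc finger genes without each library was −0.40 to −0.24 short-term and −0.54 to −0.44 long-term. Clusters numbered 9, 10 at a distance of 0.5 Mb and 6 at 2 Mb. Depth limits the genes of few counts, whose intervals are wide.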
